A study of Mus musculus with 23 samples.

Results

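The genes described here encode heat shock proteins and DnaJ (J-domain) proteins, the molecular chaperones of the cell. They were taken by name, as every probe set with a single gene symbol that begins with Hsp or Dnaj, without use of any measured value. This gave 74 of the 20750 genes named by the arrays' single-symbol probe sets, and 175 of all 45101 probe sets. Of the 74 genes, 47 were covered by several probe sets. A further 6 probe sets name a chaperone gene together with another gene and were left out of the counts.

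Chaperones bind unfolded protein and help it to fold. DnaJ proteins deliver a substrate to an HSP70 protein and start its ATP cycle, and the larger HSP110 proteins end the cycle by exchanging the nucleotide, so that the substrate is released. HSP90 acts later on kinases and hormone receptors, small heat shock proteins hold aggregating proteins, and mitochondria and the endoplasmic reticulum (ER) have HSP70 proteins of their own. Under heat or proteotoxic stress the factor HSF1 binds heat shock elements, inverted repeats of GAA, and raises the inducible members, while ER stress raises the ER members. In models of striatal disease these proteins are known for keeping polyglutamine proteins such as mutant huntingtin from aggregating in medium spiny neurons, the main neurons of this tissue.

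RNA of striatal tissue was measured in double knockout mice (dKO) and wild-type mice (WT) at 3 ages. The knockout removes Ezh1 and Ezh2, the alternative histone methyltransferases of Polycomb repressive complex 2, and its genotype label names both genes with a Camk Cre. Camk promoters are known to drive the Cre recombinase in forebrain neurons rather than glia, and the labels give no further detail of the driver or of the part of each gene that is removed. The series' design text calls the replicates biological and the WT mice littermates of matched sex and age. By Xist RNA, a mark of female tissue, the genotypes were not evenly matched in sex at 6 weeks, as described below. There were 3 dKO and 3 WT arrays at 6 weeks, 3 dKO and 4 WT arrays at 3 months, and 6 dKO and 4 WT arrays at 6 months. The labels name no treatment for any group. The deposited log2 values are centred for each probe set, so they compare arrays and hold no level that could be set against another gene. Each difference is dKO minus WT on the log2 scale, a log2 fold change, followed by ± its standard error (SE). Adjusted p-values are from limma with Benjamini-Hochberg adjustment over all 45037 probe sets that are not array controls, and a probe set was called at an adjusted p under 0.05.

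All 4 Ezh1 probe sets were below WT on every dKO array at each age, and 1449023_a_at gave log2 fold changes of -2.05 at 6 weeks, -2.0 at 3 months and -2.10 at 6 months. On that probe set the library labelled dKO replicate 3 at 6 weeks read 1.47, against -0.37 and -0.62 in the other dKO libraries and 2.07 to 2.28 in WT, so this library goes partly against its label. The 1 Ezh2 probe set, 1416544_at, was called at no age (-0.40, -0.45 and -0.43, adjusted p = 0.620, 0.684 and 0.0721). Its dKO arrays overlapped WT at 6 weeks (0.91, -0.11 and 0.81 in dKO, 0.75 to 1.09 in WT) and at 6 months, and lay below WT at 3 months. Whether it lies in the removed part of the gene is not given in the sources used here, so the loss of Ezh2 was not checked by it. Markers of choroid plexus, a tissue beside the striatum, were high on 5 arrays, among them dKO replicate 2 (list median 2.92) and WT replicate 1 (2.86) at 6 months. On WT replicate 1 at 6 months the 18S control probe sets read 0.757 to 0.962, against -0.317 to 0.412 on the other 22 arrays. The 6 dKO arrays at 6 months differed among themselves along 1 main component, which held 47.2% of their variance over all probe sets, with replicates 3, 4 and 5 at 0.35, 0.57 and 0.19 and replicates 1, 2 and 6 at -0.36, -0.61 and -0.14. Mean Xist RNA was high on replicates 3, 4, 5 and 6 (0.33, 0.28, 0.45 and 0.14) and low on 1 and 2 (-6.06 and -5.82). The part of sex in this spread was not tested. Medium spiny neuron markers were lower on all 6 dKO arrays at 6 months (list median -0.73 to -0.36) than on the 4 WT arrays (0.03 to 0.19). In bulk tissue, fewer cells of a type and less RNA per cell cannot be told apart.

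The class with the most calls was HSP110, at 6 months. All 3 HSP110 genes, Hsph1, Hspa4 and Hspa4l, fell in dKO striatum, with 8 of their 10 probe sets called lower and none higher, and a median log2 fold change of -0.54. Of all 175 chaperone probe sets, 3 were called higher and 17 lower at 6 months, together 11.4%, against 13.9% of all probe sets (6.73% higher and 7.14% lower). The family as a whole was therefore not called more often than the rest of the array, and its median log2 fold change was -0.01, against 0.00 over all probe sets. The called probe sets belonged to 13 genes, 3 higher and 10 lower. At 6 weeks 0 of 175 were called, against 0.189% of all probe sets, with 12 at an unadjusted p under 0.05. At 3 months 0 were called as well, against 0.187%, again with 12 at an unadjusted p under 0.05.

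**Figure D1:**
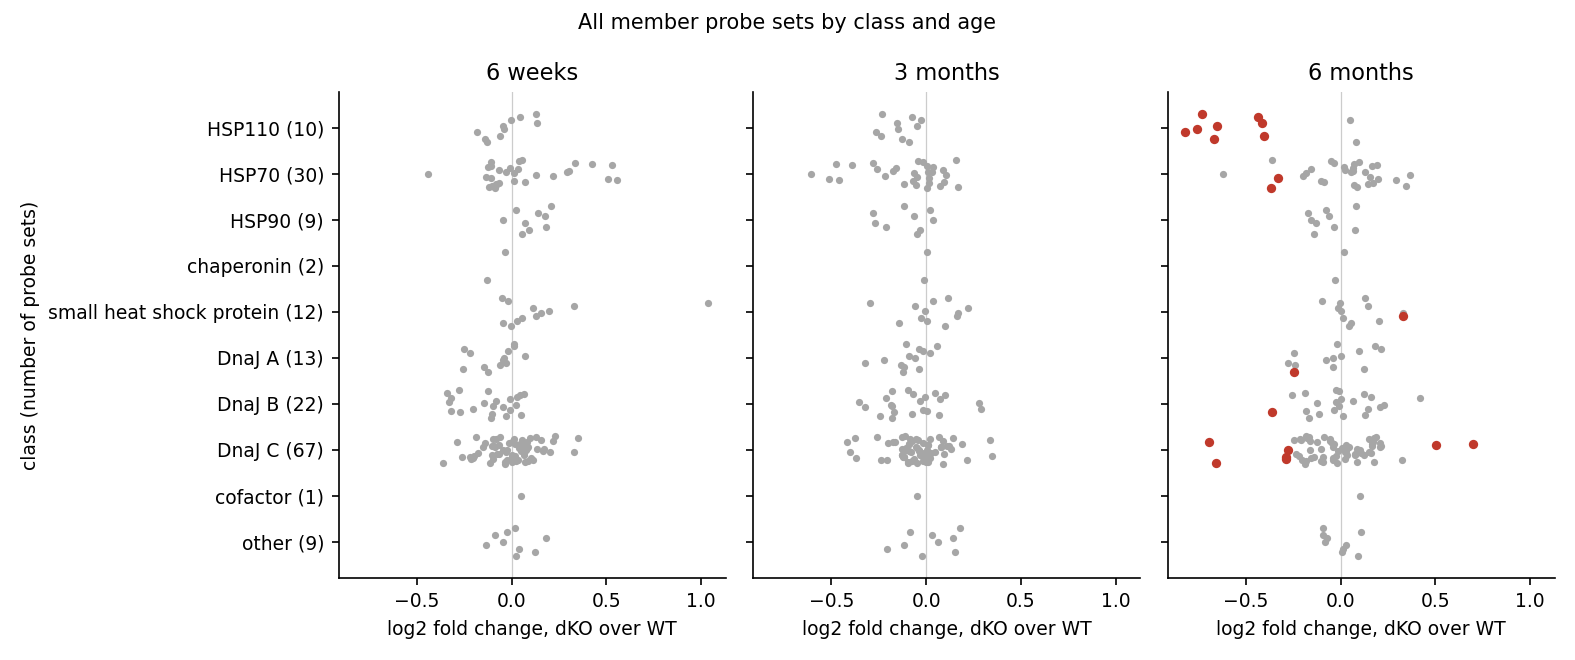
Log2 fold change of dKO over WT for each of the 175 chaperone probe sets, by class and age, with called probe sets in red and the others in grey. At 6 months 8 of the 10 HSP110 probe sets are red and lie between -0.82 and -0.41, while the other classes spread around 0 at all 3 ages.

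The 250 bases before the transcription start of the 3 HSP110 genes are shown because this class had the most calls. They are from RefSeq (mouse build GRCm38.p6), 5′ to 3′ on the gene's strand. Capitals mark a pair of inverted heat shock units, GAANNTTC or TTCNNGAA, searched on both strands. Hsph1 is at chr5:149636337-149636586 on the minus strand, Hspa4 at chr11:53300480-53300729 on the minus strand and Hspa4l at chr3:40745363-40745612 on the plus strand. Hsph1 has 2 windows, of which the first is shown. It held 1 pair, from position -33 to -26 of the start, and the windows of Hspa4 and Hspa4l held none.
Hsph1: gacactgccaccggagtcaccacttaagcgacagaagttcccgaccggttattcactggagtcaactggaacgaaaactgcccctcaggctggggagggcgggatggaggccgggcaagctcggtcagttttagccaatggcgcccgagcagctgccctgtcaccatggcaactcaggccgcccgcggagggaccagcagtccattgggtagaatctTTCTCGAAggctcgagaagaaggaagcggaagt
Hspa4: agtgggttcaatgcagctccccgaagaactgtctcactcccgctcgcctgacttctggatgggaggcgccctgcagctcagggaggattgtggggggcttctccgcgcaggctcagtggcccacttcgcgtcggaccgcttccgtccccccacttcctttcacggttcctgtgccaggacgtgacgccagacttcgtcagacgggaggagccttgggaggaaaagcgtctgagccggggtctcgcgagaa
Hspa4l: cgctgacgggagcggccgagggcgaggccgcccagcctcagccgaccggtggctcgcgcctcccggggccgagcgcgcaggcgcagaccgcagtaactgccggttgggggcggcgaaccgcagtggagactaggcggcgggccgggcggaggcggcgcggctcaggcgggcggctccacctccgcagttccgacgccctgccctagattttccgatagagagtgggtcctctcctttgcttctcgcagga
Of the 74 genes, 59 were matched to RefSeq, with 75 windows, and 13 of the 59 genes held either pair in at least 1 window. Of all 32851 windows 12.8% held either pair, a share of windows and not of genes, so the 2 are not directly comparable. Among the 12 called genes with a window, 3 held a pair (Dnaja1, Hspb1 and Hsph1). Alone, GAANNTTC was in 6.69% of all windows and TTCNNGAA in 7.17%. An element of 3 units in a row, which overlaps both pairs, was in the windows of Dnajb6 and Hspe1 and in 153 of all windows.

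Hsph1, the stress-inducible HSP110 protein, read -0.26, -0.38, -1.46, -1.67, -1.08 and -0.48 on the 6 dKO arrays at 6 months and 0.06, -0.11, -0.11 and -0.12 on the WT arrays (1423566_a_at). Every dKO array lay below every WT array, and dKO replicates 3, 4 and 5 were the lowest. The log2 fold change was -0.82 ± 0.20, 0.567-fold (adjusted p = 0.00917), and the second probe set, 1425993_a_at, gave -0.76 ± 0.20 (adjusted p = 0.0154) with the same separation. At 6 weeks the same genotype differences were -0.18 and -0.04, and at 3 months -0.26 and -0.15, with adjusted p of at least 0.962 throughout.

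Hspa4 encodes a constitutive HSP110 protein. On 1416147_at it read -0.58, -0.28, -1.34, -1.62, -0.80 and -0.26 in dKO and -0.00, -0.14, -0.16 and -0.29 in WT, so that 2 dKO arrays overlapped the WT range (-0.67 ± 0.19, 0.630-fold, adjusted p = 0.0198). On 1435194_at the groups did not overlap (-0.65 ± 0.19, 0.636-fold, adjusted p = 0.0251). A further probe set, 1416146_at, read otherwise, with -0.58, -0.49, 0.37, 0.49, 0.25 and -0.52 in dKO and 0.00, -0.22, -0.18 and -0.23 in WT. It was thus high on dKO replicates 3, 4 and 5, which were the low ones on the called probe sets, and its mean difference was 0.08 (adjusted p = 0.821). The last one, 1440575_at, differed by 0.05 (adjusted p = 0.793). Which transcripts each probe set reads is not given in the sources used here, and their part in this split was not tested.

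Hspa4l, the Hspa4-like protein abundant in testis and present in brain, was called on all 4 of its probe sets. The log2 fold changes were -0.41 ± 0.11 (1418253_a_at, adjusted p = 0.0167), -0.41 ± 0.09 (1439093_at, 0.00409), -0.44 ± 0.10 (1449010_at, 0.00456) and -0.73 ± 0.17 (1458385_at, 0.00661). On 1449010_at the dKO arrays read -0.49, -0.09, -0.61, -0.50, -0.30 and -0.17 and the WT arrays 0.17, 0.07, 0.09 and -0.01. Here the spread among dKO arrays was smaller than for Hsph1, and all dKO arrays lay below WT on each of the 4. On 1458385_at a single WT array, replicate 1, stood at 1.16 while the other WT arrays were at -0.01, -0.15 and 0.31, and without that array the log2 fold change was -0.45 (adjusted p = 0.0217).

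**Figure D2:**
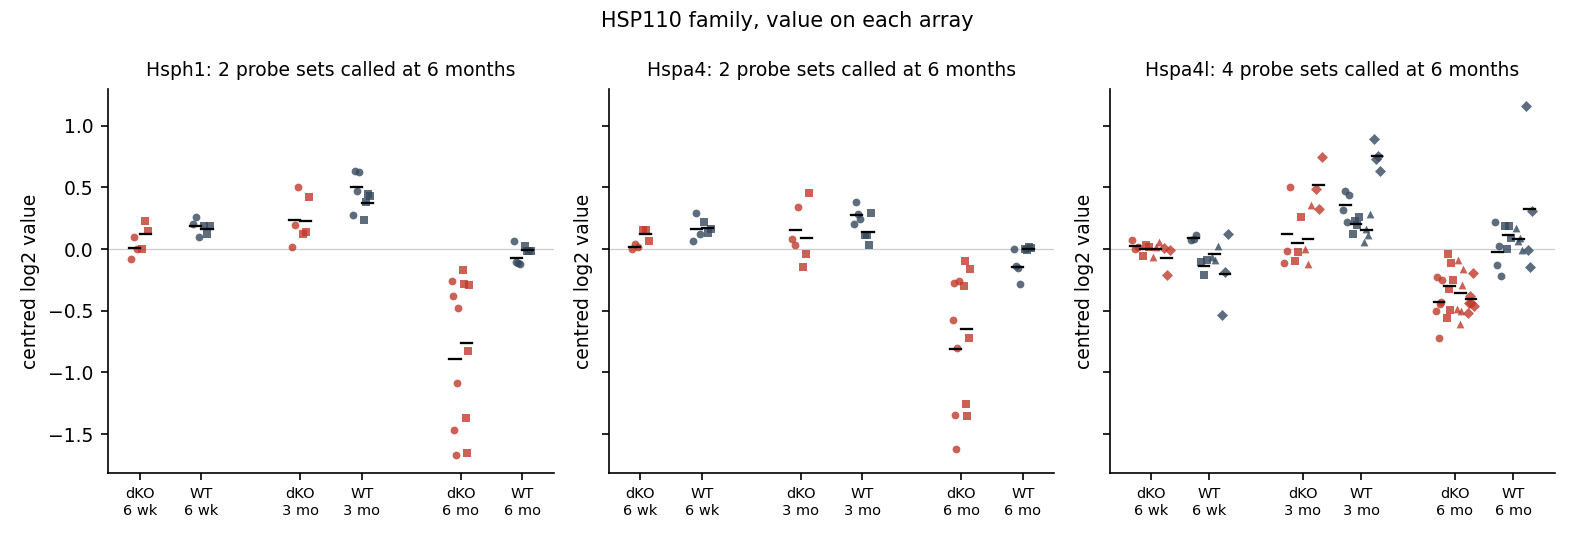
Centred log2 value on each array for the called probe sets of Hsph1, Hspa4 and Hspa4l, dKO in red and WT in dark grey, with marker shapes for probe sets and black bars for group means. At 6 months the dKO arrays reach down to -1.67 for Hsph1, -1.62 for Hspa4 and -0.72 for Hspa4l, and the groups lie closer together at 6 weeks and 3 months.

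Over the 8 called HSP110 probe sets the genotype difference ran from -0.18 to 0.13 at 6 weeks and from -0.26 to -0.05 at 3 months. The change of the difference from 6 weeks to 6 months was -0.86 to -0.34, and from 3 to 6 months -0.61 to -0.17, and neither passed the test for any of them (adjusted p = 0.105 to 0.486 and 0.305 to 0.739). With only the 6-month arrays in the fit, both Hsph1 probe sets (adjusted p = 0.0790 and 0.113), both Hspa4 probe sets (0.127 and 0.126) and 2 of the 4 Hspa4l probe sets (0.0561 and 0.0506) lost their call, and 6.06% of all probe sets were called. Without WT replicate 1 at 6 months both Hspa4 probe sets (0.0576 and 0.0508) and 1418253_a_at of Hspa4l (0.0732) lost theirs, while both Hsph1 calls held with any 1 array left out. The Hspa4 call on 1435194_at was kept in 17 of the 23 fits that left out 1 array, and was lost without any 1 of the 4 WT arrays or dKO replicate 3 or 4 at 6 months.

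Among the HSP70 proteins, the ER member fell and the cytosolic ones did not pass. Hspa5 (BiP) is the HSP70 of the ER lumen and the best known target of the unfolded protein response. It was lower in dKO at 6 months on 2 of its 3 probe sets, and these were the only calls among the 30 HSP70 probe sets. Its promoter window is shown with those of the inducible genes Hspa1a and Hspa1b, described next, since stress elements are known there. Capitals mark the ER stress element (CCAAT, then any 9 bases, then CCACG) in Hspa5 and the heat shock pair in the others. Hspa5 lies at chr2:34771840-34772089 on the plus strand, Hspa1a at chr17:34972157-34972406 and Hspa1b at chr17:34959239-34959488, both on the minus strand.
Hspa5: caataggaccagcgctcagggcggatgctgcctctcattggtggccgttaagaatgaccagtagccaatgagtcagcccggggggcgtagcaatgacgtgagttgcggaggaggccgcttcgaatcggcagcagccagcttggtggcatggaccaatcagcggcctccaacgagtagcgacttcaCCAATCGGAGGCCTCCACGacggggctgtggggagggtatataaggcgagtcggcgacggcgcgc
Hspa1a: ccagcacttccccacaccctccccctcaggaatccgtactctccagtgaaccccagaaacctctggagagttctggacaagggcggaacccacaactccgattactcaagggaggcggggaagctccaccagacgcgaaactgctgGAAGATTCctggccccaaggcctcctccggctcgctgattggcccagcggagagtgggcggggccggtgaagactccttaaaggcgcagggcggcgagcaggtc
Hspa1b: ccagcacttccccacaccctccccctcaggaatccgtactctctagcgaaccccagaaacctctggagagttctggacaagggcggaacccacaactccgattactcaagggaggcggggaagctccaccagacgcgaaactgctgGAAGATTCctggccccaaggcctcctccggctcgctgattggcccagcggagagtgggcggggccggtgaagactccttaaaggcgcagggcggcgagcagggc
The ER stress element stood from -65 to -47 in Hspa5, and was also found for Dnajc3 and Hsp90b1, against 0.113% of all windows. Hspa1a and Hspa1b had the pair at -104 to -97, in windows identical at 247 of 250 positions. Their transcripts are near-identical copies as well, so probe sets of one may read the other, and neither can be reported as separate with certainty.

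For Hspa5 the dKO arrays at 6 months read -0.37, -0.37, -0.30, -0.30, -0.34 and -0.14 and the WT arrays 0.31, -0.02, 0.00 and -0.04 (1416064_a_at). All dKO arrays lay below WT, with little spread between them, and replicates 3, 4 and 5 did not stand apart. The log2 fold change was -0.37 ± 0.07, 0.775-fold (adjusted p = 0.00165), and -0.33 ± 0.08 on 1427464_s_at (adjusted p = 0.00580). The genotype difference of these 2 probe sets was -0.09 and -0.11 at 6 weeks and 0.00 and 0.01 at 3 months (adjusted p of at least 0.903). The remaining one, 1447824_x_at, differed by 0.02 at 6 months (adjusted p = 0.916). With the choroid-rich arrays left out, 1416064_a_at kept its call (-0.27, adjusted p = 0.0234) and 1427464_s_at lost it (-0.26, adjusted p = 0.0645).

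Hspa1a and Hspa1b, the HSP70 genes that HSF1 induces most strongly, passed at no age with arrays weighted equally, but their values crossed between ages. At 6 weeks Hspa1a (1452388_at) read -0.27, 0.00 and -0.20 in dKO and -0.68, -0.59 and -0.48 in WT. At 3 months it read -0.21, -0.18 and 0.13 in dKO and 0.29, 0.55, 0.14 and 0.57 in WT, and at 6 months 0.29, -0.40, 0.19, 0.16, 0.06 and 0.11 in dKO and -0.01, 0.15, 0.01 and -0.16 in WT. All dKO arrays were thus above WT at 6 weeks and all below WT at 3 months, and the groups overlapped at 6 months. The log2 fold changes were 0.43, -0.47 and 0.07 (adjusted p = 0.322, 0.287 and 0.766). The 3 probe sets of Hspa1b were likewise above WT on every dKO array at 6 weeks (0.51 to 0.55, adjusted p = 0.334 to 0.563), and at 3 months their groups overlapped (-0.51 to -0.39, adjusted p = 0.723 to 0.826). With arrays weighted by their quality, Hspa1a passed at 6 weeks (0.41, adjusted p = 0.0129) and at 3 months (-0.52, adjusted p = 0.0344), and 2 of the 3 Hspa1b probe sets passed at 6 weeks (adjusted p = 0.0455 and 0.0167).

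The difference of the genotype effect between 3 months and 6 weeks was added as a contrast after these values were seen. It was -1.02 to -0.90 over the 4 probe sets, with adjusted p of 0.310 to 0.706, and 0 of 175 chaperone probe sets passed it, against 0.0111% of all. With array weights all 4 passed it (adjusted p = 0.00523 to 0.0441), in a fit that gave the library labelled dKO replicate 3 at 6 weeks a weight of 4.474. Without that library the adjusted p for Hspa1a at 6 weeks was 0.533 and for the contrast 0.590. At 6 weeks 9 chaperone probe sets lay wholly above WT and 25 wholly below, 19.4% in all, against 16.9% of all probe sets (7% above and 9.95% below). At 3 months the counts were 6 and 13, 10.9%, against 9.29% (4.71% above and 4.57% below).

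**Figure D3:**
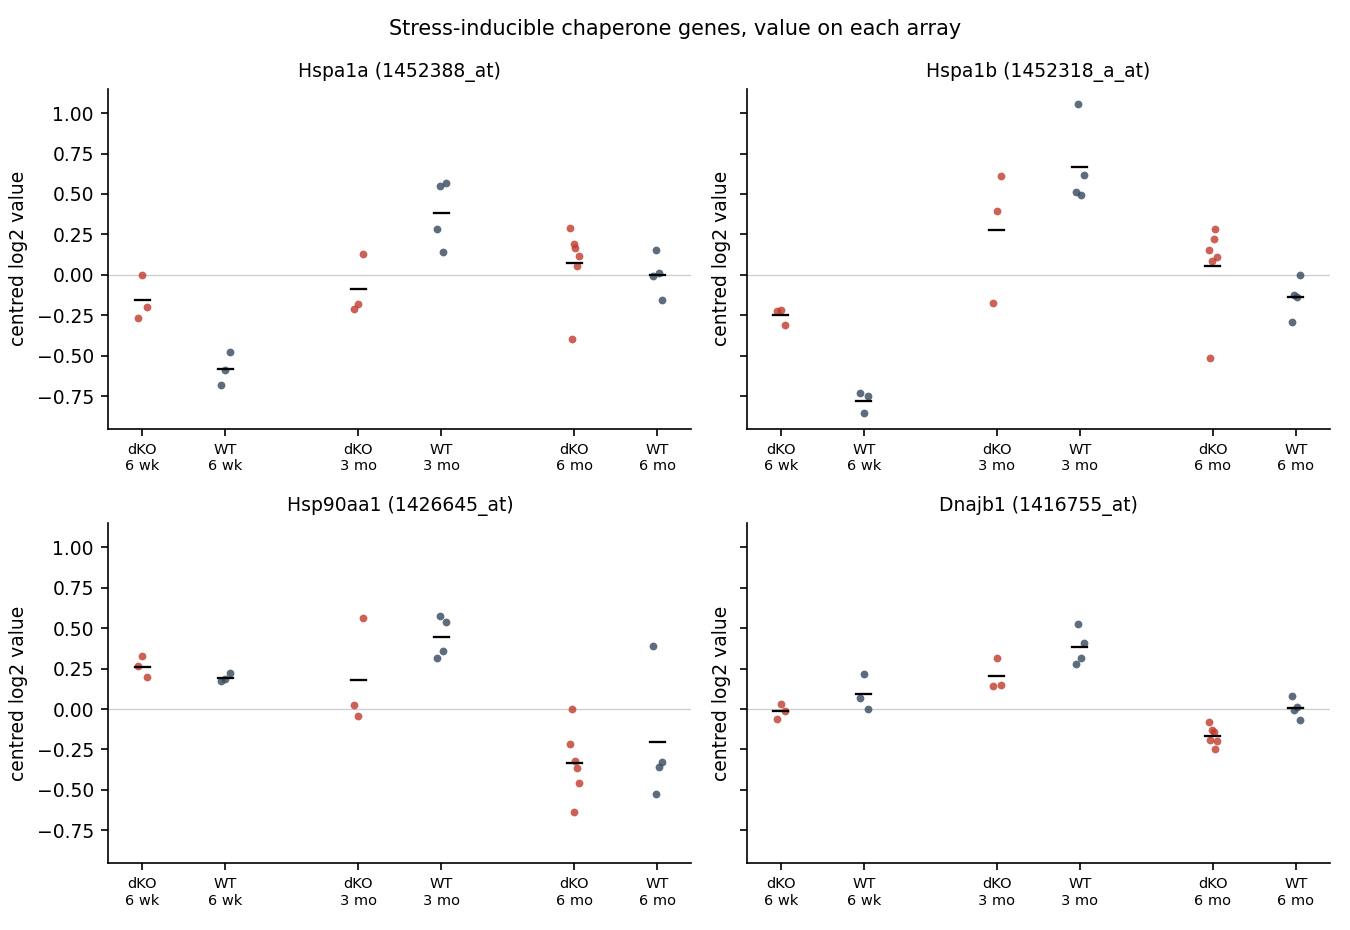
Centred log2 value on each array for Hspa1a, Hspa1b, Hsp90aa1 and Dnajb1, 1 probe set each, dKO in red and WT in dark grey, with black bars for group means. For Hspa1a and Hspa1b the dKO arrays stand above WT at 6 weeks, and for Hspa1a they stand below WT at 3 months, where the highest dKO array is at 0.13 and the lowest WT array at 0.14.

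The other HSP70 genes showed no call. Hspa8 (Hsc70), the constitutive partner of most DnaJ proteins in neurons, differed by -0.10 to -0.05 on 3 probe sets. The remaining one, 1431182_at, had the largest difference of the class without a call, -0.62 ± 0.21 (adjusted p = 0.0578), with -0.55, -0.01, -0.67, -1.44, -0.61 and -0.10 in dKO and -0.57, 0.29, 0.42 and 0.08 in WT. Hspa9 (mortalin), the mitochondrial HSP70, differed by -0.18 to 0.15 over 5 probe sets. Hspbp1, a nucleotide exchange cofactor of HSP70, differed by 0.10 (adjusted p = 0.417).

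The cytosolic HSP90 genes and the ER form had no call at any age. The 9 probe sets of Hsp90aa1, which is stress-inducible, Hsp90ab1, which is constitutive, and Hsp90b1 (GRP94), which resides in the ER, differed by -0.17 to 0.08 at 6 months (adjusted p = 0.184 to 0.915). The largest difference was that of Hsp90b1 on 1438040_a_at, -0.17 ± 0.21. Hspe1, the lid of the mitochondrial chaperonin, differed by -0.03 and 0.02 at 6 months. Hspd1, the chaperonin ring itself, is read only by a probe set that also names another locus, and that probe set was lower in dKO by 0.26 on the log2 scale (log2 fold change -0.26, adjusted p = 0.0255). Another such probe set, shared by Hspa4l and 4921509J17Rik, gave -0.40 (adjusted p = 0.0171), and one shared by Dnajc19 and its pseudogene -0.55 (adjusted p = 0.0110).

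Of the small heat shock proteins, Hspb1 (Hsp25 in mouse), which binds aggregating protein and actin and is known in reactive astrocytes, was called higher at 6 months on 1 of 2 probe sets. Its window at chr5:135887669-135887918 on the plus strand held 2 heat shock pairs, from -117 to -110 and from -97 to -90, in capitals.
Hspb1: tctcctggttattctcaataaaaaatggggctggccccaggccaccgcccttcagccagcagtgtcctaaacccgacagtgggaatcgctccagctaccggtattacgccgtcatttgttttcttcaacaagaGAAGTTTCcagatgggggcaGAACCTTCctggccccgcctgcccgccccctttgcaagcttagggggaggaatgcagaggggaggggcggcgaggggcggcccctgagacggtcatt
On 1422943_a_at it read 0.03, 0.00, 0.29, 0.56, 0.14 and 0.49 in dKO and 0.00, -0.08, -0.06 and -0.16 in WT. The lowest dKO array met the highest WT array near 0, and the log2 fold change was 0.33 ± 0.11, 1.26-fold (adjusted p = 0.0474). The other probe set, 1425964_x_at, gave 0.33 ± 0.11 and missed the threshold (adjusted p = 0.0506), and the call was kept in 6 of the 23 fits that left out 1 array. Reactive astrocyte markers were higher on all 6 dKO arrays at 6 months (list median 0.15 to 0.55) than on the 4 WT arrays (-0.17 to -0.02), with 10 of 29 probe sets called higher (34.5%, against 6.73% of all probe sets) and 0 lower. They were also wholly above WT at 6 weeks (-0.06 to 0.16 in dKO, -0.38 to -0.21 in WT) and 3 months (-0.04 to 0.27 and -0.29 to -0.13). At those ages 5 and 4 of the 29 were called higher and 0 lower, against 0.189% and 0.187% of all probe sets in either direction. Hspb1 had no call at either age. The part of these markers in the Hspb1 difference was not tested. The remaining 10 probe sets of this class, for 6 genes, had no call.

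Hspb3, a small heat shock protein of muscle and nerve, had the widest difference of the family at 6 weeks. It read 0.07, 2.31 and 1.59 in dKO and -0.13, 0.00 and 1.0 in WT, and the groups overlapped (1.04, adjusted p = 0.559). Cryab, the small heat shock protein of oligodendrocytes and astrocytes, is outside the name rule. It was called lower at 6 months on 2 probe sets, but not on 1435837_at. On 1416455_a_at it read -0.19, -0.12, -1.55, -1.47, -1.36 and -1.0 in dKO and 0.09, 0.00, 0.05 and 0.02 in WT (-0.99, adjusted p = 0.00317). Its lowest arrays were replicates 3, 4 and 5, as for Hsph1, with replicate 6 next at -1.0 and replicates 1 and 2 well above these. On the second called probe set, 1434369_a_at, the groups overlapped. There dKO replicates 1 and 2 read 0.215 and 0.0737, and the WT arrays 0.0423 to 0.2105. Of 28 oligodendrocyte marker probe sets, 7 were called lower at 6 months (25%, against 7.14% of all probe sets), 0 were called higher and 21 did not pass. The list's median ran from -0.55 to 0.09 on dKO arrays and from -0.05 to 0.11 on WT arrays, so the groups overlapped, and the part of these cells in the Cryab difference was not tested.

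The DnaJ proteins gave 9 calls on 102 probe sets at 6 months, 2 higher and 7 lower, together 8.82%, against 13.9% of all probe sets. Dnaja1, which pairs with Hspa8 in the cytosol, was the only call among the 13 DnaJ A probe sets. It read -0.52, -0.29, -0.35, -0.19, -0.21 and -0.25 in dKO and 0.10, -0.07, -0.14 and -0.10 in WT, with no overlap (1416288_at, -0.25 ± 0.07, adjusted p = 0.0224), while its other probe sets differed by 0.18 and -0.02. Without WT replicate 1 at 6 months its adjusted p was 0.0870. The largest DnaJ A difference without a call was that of Dnaja4, -0.28 ± 0.14 (adjusted p = 0.199).

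In the DnaJ B class, Dnajb5 was the only gene called of 13. It read -0.24, -0.70, -0.51, -0.48, -0.44 and 0.06 in dKO and -0.04, 0.00, -0.04 and -0.02 in WT, with dKO replicate 6 above all WT arrays (1421961_a_at, -0.36 ± 0.11, adjusted p = 0.0306). This was the only call among the gene's 3 probe sets, which differed by -0.36 to -0.18. The call was kept in 15 of the 23 fits that left out 1 array. Dnajb1 (Hsp40), the main stress-inducible J protein, lay below WT on every dKO array at 6 months without a call (1416755_at, -0.17 ± 0.07, adjusted p = 0.0950), and its other probe set differed by 0.01. Dnajb6, a strong suppressor of polyglutamine aggregation, differed by -0.01 to 0.21 over 4 probe sets. Dnajb4 had the largest difference of the class without a call (1439524_at, 0.42 ± 0.18, adjusted p = 0.135). It read -0.21, -0.15, 0.91, 0.91, 0.45 and -0.16 in dKO and 0.00, -0.34, 0.03 and -0.17 in WT, so that dKO replicates 3, 4 and 5 were again apart from the others, here upwards.

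The DnaJ C class, whose members share only the J domain, had 2 probe sets higher and 5 lower of 67. Dnajc2 (zuotin, MPP11), a chaperone on the ribosome, had the smallest adjusted p of all 175 chaperone probe sets. It read -1.10, -0.79, -0.38, -0.64, -0.38 and -0.35 in dKO and 0.06, -0.00, 0.13 and 0.02 in WT (1417657_s_at, -0.66 ± 0.12, 0.634-fold, adjusted p = 0.000732). On 1448794_s_at the highest dKO array (-0.44) lay just below the lowest WT array (-0.43), and the log2 fold change was -0.69 ± 0.17 (adjusted p = 0.00731). The highest WT array there, replicate 1, stood at 0.82, and without it the log2 fold change was -0.46 (adjusted p = 0.0349). The other 2 Dnajc2 probe sets differed by -0.22 (adjusted p = 0.143) and 0.18 (adjusted p = 0.325).

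Dnajc17, which acts in splicing, and Dnajc25, a membrane-anchored J protein, were called higher. Dnajc17 read 1.08, 0.57, 1.09, 1.35, 1.06 and 0.58 in dKO and -0.24, 0.51, 0.37 and 0.38 in WT on 1446928_at, with no overlap (0.70 ± 0.15, 1.62-fold, adjusted p = 0.00327). Its other probe sets differed by 0.32 (1420165_s_at, adjusted p = 0.131, the largest of the class without a call) and -0.25 (adjusted p = 0.202). Dnajc25 has 1 probe set, which read 0.00, 0.34, 0.39, 0.73, 0.24 and 0.13 in dKO and -0.35, -0.30, -0.07 and -0.07 in WT. Its groups did not overlap either (0.50 ± 0.10, 1.42-fold, adjusted p = 0.00265).

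The last 3 calls were small. Dnajc13, a J protein of endosomes, fell by 0.28 on the log2 scale (1434038_at, log2 fold change -0.28 ± 0.07, adjusted p = 0.0128). Dnajc1, of the ER membrane, had -0.29 ± 0.10 (1420500_at, adjusted p = 0.0452) and Dnajc28 had -0.29 ± 0.10 (1420543_at, adjusted p = 0.0486). Each gene was called on 1 probe set only, of 2 for Dnajc13, 5 for Dnajc1 and 2 for Dnajc28. The uncalled ones differed by -0.04 for Dnajc13, -0.04 for Dnajc28 and up to 0.21 for Dnajc1. The Dnajc1 and Dnajc28 calls were kept in only 6 and 5 of the 23 fits that left out 1 array. Dnajc5 (cysteine string protein), a chaperone of synaptic vesicles, differed by -0.12 to 0.17 over 5 probe sets at 6 months. Its largest difference was at 3 months, -0.41 on 1448851_a_at (unadjusted p = 0.00173, adjusted p = 0.249). Dnajc6 (auxilin), which uncoats clathrin vesicles in neurons, differed by 0.02 to 0.16 at 6 months. None of the 9 probe sets of the remaining genes that share only the prefix passed at 6 months, the largest difference being that of Hspbap1 (0.11, adjusted p = 0.554).

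The probe sets of a gene often differed. Of the 13 called genes, 3 had all their probe sets called (Hsph1, Hspa4l and Dnajc25) and 10 had called and uncalled ones side by side. Of the 20 called probe sets, 14 had no overlap between groups, and 8 differed by at least 1.5-fold. Over all 175, 2 lay wholly above WT at 6 months and 14 wholly below, together 9.14%, against 9.15% of all probe sets (4.46% above and 4.69% below). Of the 17 probe sets called lower, 11 had a negative log2 fold change at all 3 ages, and the share over all probe sets called lower was not worked out. Among all 175, 85 had a positive log2 fold change at 6 weeks and 60 at 3 months. The 17 are not independent, since 8 of them read 3 HSP110 genes. The 3 genotype comparisons share no arrays, but they share 1 estimate of the spread for each probe set. No chaperone probe set passed the test of a change of the difference between ages. From 6 weeks to 6 months 0 passed (10 at an unadjusted p under 0.05), against 0.575% of all probe sets, and from 3 to 6 months 0 passed (20 at an unadjusted p under 0.05), against 0.939%.

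**Figure D4:**
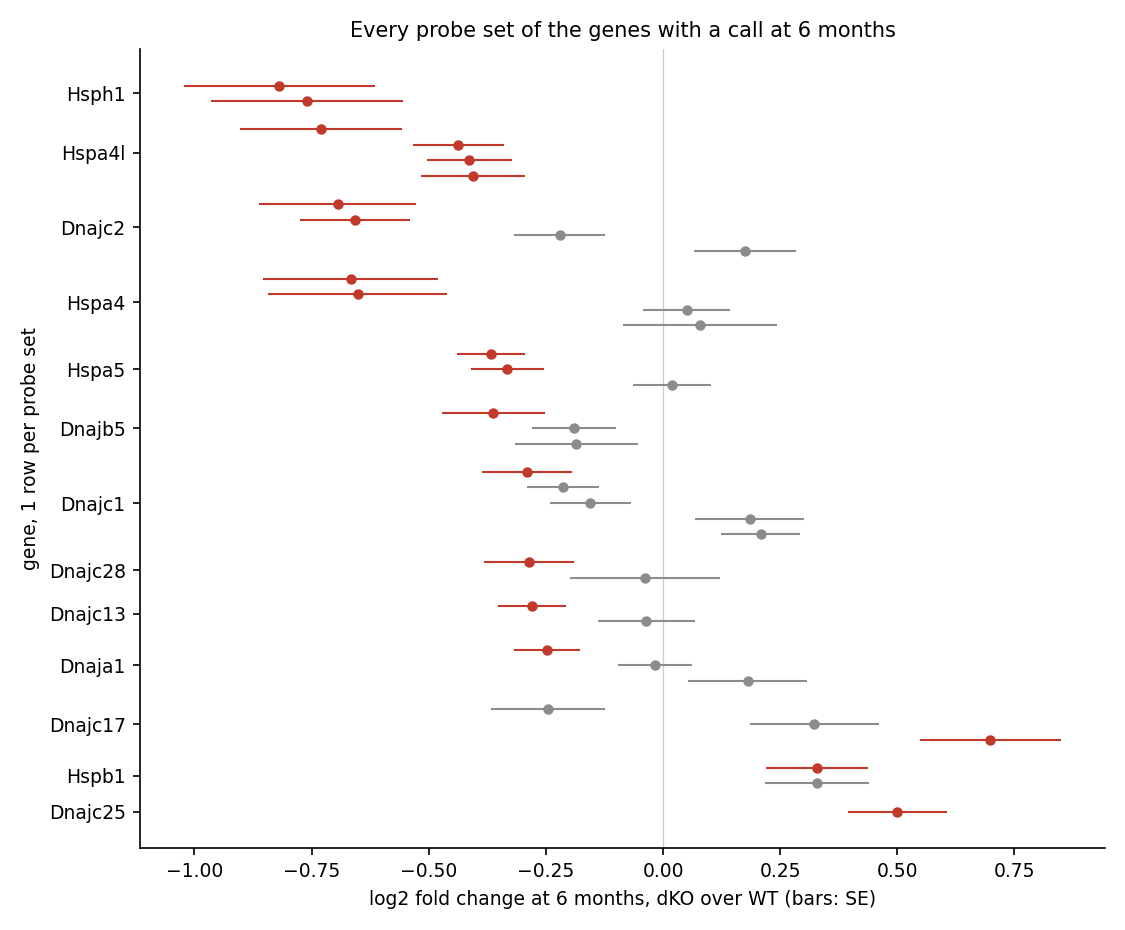
Log2 fold change at 6 months, dKO over WT, with its SE for every probe set of the 13 genes with a call, called probe sets in red and the others in grey. Hspa4l and Hsph1 have red points only, while Hspa4 has 2 red points at -0.67 and -0.65 and 2 grey points at 0.08 and 0.05.

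The regulators of these genes were described from lists that were drawn up with earlier results of these data known. Of 8 probe sets for factors of the heat shock response, 2 were called higher and 1 lower at 6 months, against 6.73% and 7.14% of all probe sets, and 5 did not pass. Hsf1, the master activator, read -0.19, -0.49, -0.66, -0.34, -0.31 and -0.17 in dKO and 0.01, 0.07, 0.08 and 0.00 in WT (-0.40, adjusted p = 0.00197). Hsf4, known from the lens, had 0.56 (adjusted p = 0.0353), and Hsbp1, a binding partner that restrains Hsf1, had 0.26 on 1 of 2 probe sets (adjusted p = 0.0165). At 6 weeks and 3 months none of the 8 regulator lists had a called probe set.

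The list for the ER stress response leaves out the genes named Hsp or Dnaj but holds other ER folding genes (Calr, Canx, Pdia3, Pdia4 and Pdia6). Of its 48 probe sets, 12 were called lower at 6 months (25%, against 7.14% of all probe sets), 1 was called higher (2.08%, against 6.73%) and 35 did not pass. The median log2 fold change was -0.15, against 0.00 over all probe sets. The list's median ran from -0.25 to -0.04 on dKO arrays and from -0.05 to 0.01 on WT arrays. Atf6, a sensor of ER stress that is cleaved into a transcription factor, was called on 1435444_at only. There it read -0.54, -0.39, -0.86, -1.11, -0.98 and -0.66 in dKO and -0.14, 0.11, 0.00 and 0.06 in WT (-0.76, adjusted p = 3.56e-05). Its other probe sets, 1453288_at and 1456021_at, did not pass. Pdia3, a disulfide isomerase, had -0.62 on 1 of 2 probe sets (adjusted p = 0.0390) and -0.16 on the other, and Creld2 had -0.46 (adjusted p = 0.00129). Medium spiny neuron markers had 22 of 43 probe sets called lower (51.2%, against 7.14%) and 0 higher at 6 months, with a median of -0.49, and their part in the ER and HSP110 differences was not tested.

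Partners of HSP70 and HSP90 were called about as often as the rest of the array. Among HSP70 exchange factors and partners, 1 of 21 probe sets was called higher and 2 lower, together 14.3%, against 13.9% of all probe sets. St13 (Hip), which stabilises HSP70 on its substrate, had -0.52 on 1 of 3 probe sets (adjusted p = 0.00836), Bag4 had -0.41 on 1 of 3 (adjusted p = 0.00424) and Grpel2, of mitochondria, had 0.36 on 1 of 2 (adjusted p = 0.00468). Among HSP90 co-chaperones 4 of 39 were called higher and 1 lower, together 12.8%. The one that fell, Chordc1 (morgana), read -1.14, -0.43, -1.38, -2.27, -1.42 and -0.42 in dKO and 0.00, -0.18, -0.21 and -0.30 in WT (-1.01, adjusted p = 0.00459). Fkbp5, a glucocorticoid-induced co-chaperone, rose by 0.75 and 0.49 on 2 of 3 probe sets (adjusted p = 0.00239 and 0.0113), and Unc45b by 0.52 (adjusted p = 0.0286).

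In the other protein quality control lists the share called ran from 13.9% to 28.6%, against 13.9% of all probe sets. Of 36 probe sets for the cytosolic chaperonin TRiC and prefoldin, 5 were called higher and 0 lower, and this 13.9% equals the share called over all probe sets (6.73% higher). Among the 5 were 2 probe sets of Cct2, with 0.40 on 1416037_a_at (adjusted p = 0.00253) and 0.20 on 1433535_x_at (adjusted p = 0.0440). Mitochondrial proteases had 3 of 16 higher (18.8%) and 0 lower, with Spg7 at 0.54 on 1427166_a_at (adjusted p = 0.000120) and Htra2 at 0.52 and 0.48. The other Spg7 probe set, 1441585_at, did not pass. The oxidative stress list had 2 of 19 higher, both Keap1, and 1 lower, Srxn1, together 15.8%. The alpha-crystallin list had 2 of 7 lower (28.6%, against 7.14%), both Cryab, and none higher.

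Chaperone RNA also differed between 6 weeks and 6 months within a genotype. In dKO 16 probe sets were higher and 28 lower at 6 months, 25.1% in all, against 29.6% of all probe sets (14.5% higher and 15.2% lower). In WT 9 were higher and 14 lower, 13.1% in all, against 14.7% (6.29% higher and 8.38% lower). The test of whether the age difference itself differed between genotypes is the change of the genotype difference given above, which 0 chaperone probe sets passed. Xist RNA, a mark of female tissue, was high on 1 of 3 dKO arrays at 6 weeks and 4 of 6 at 6 months, and on 0 of 3 WT arrays at 6 weeks and 3 of 4 at 6 months, so age and sex are partly mixed, most in WT. The 6-week genotypes also differed in this mark, which goes partly against the matched sex of the design text. With Xist as a covariate 0 chaperone probe sets were called in dKO against WT at 6 weeks, and 4 were higher and 17 lower at 6 months. Of the WT age calls 11 were left with Xist as a covariate, and 1 with the Gapdh 3′ minus 5′ difference, a measure of RNA quality. Markers of thalamic or pallidal neurons also differed with age in WT (list median -0.51 to -0.45 at 6 weeks, 0.05 to 0.70 at 6 months). In dKO they overlapped (-0.18 to 0.85 and 0.00 to 0.52), as did cortical neuron markers in WT (-0.55 to 0.14 and -1.33 to 0.00). At 6 weeks the thalamic or pallidal markers were also higher on every dKO array (-0.18 to 0.85) than on the WT arrays (-0.51 to -0.45). Of their 23 probe sets 2 were called higher and 0 lower there, against 0.189% of all probe sets in either direction. Of 20 cortical marker probe sets, 4 were called higher in dKO at 6 months (20%, against 6.73% of all probe sets) and 0 lower. The part of the dissection in the age and genotype differences was not tested.

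Among the changes with age, Dnajc17 (1446928_at) was higher by 1.42 in dKO (adjusted p = 2e-06) and by 0.77 in WT (adjusted p = 0.00698). Dnajb11, an ER partner of Hspa5, was lower in both (-0.51, adjusted p = 0.000186 in dKO, and -0.48, adjusted p = 0.00209 in WT), as was Dnajb5 on 1450436_s_at (-0.52, adjusted p = 0.000457 in dKO, and -0.67, adjusted p = 0.000371 in WT). Hspg2 is perlecan, a basement membrane proteoglycan that shares only its prefix with the chaperones, and it was higher in both (0.54 in dKO and 0.47 in WT). Hsph1 was called in dKO only, at -0.89 on both probe sets (adjusted p = 0.00468 and 0.00498), against -0.26 and -0.17 in WT (adjusted p = 0.497 and 0.670). Hspa1a was called in WT only, at 0.58 (adjusted p = 0.00773), against 0.23 in dKO (adjusted p = 0.188). For neither gene did the test of the difference between the 2 genotypes pass. These age examples were chosen after their values were seen.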

How the data were processed

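Total RNA of mouse striatum, isolated with Trizol LS, was measured as biotin-labelled cRNA on 23 Affymetrix arrays, as the labels' protocols state. The deposited values are log2 intensities, and the submitters' processing notes name RMA without a version. The sources used here do not give the array design. The authors' deposited values are centred per probe set: 39666 probe sets (87.95%) have an array at exactly 0. Levels are therefore lost, and no filter on dim probe sets was possible. The authors also deposited a normalized table, in which 21 columns were identical to the values used and 2 columns of a shared name were left unused. The smallest median absolute difference between 2 arrays was 0.105, so no array repeats another.

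Genotype and age came from the labels. A mean per group was fitted to all 23 arrays with limma 3.58.1 in R 4.3.3, with default eBayes (residual df 17, prior df 4.93), on 45037 probe sets after 64 control probe sets were removed. Tests were two-sided, with Benjamini-Hochberg adjustment. The number of arrays limits the precision. The fit was tested on simulated data. Each probe set stands for itself, since different probe sets of a gene disagreed.

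The chaperone genes, the named genes and the gene lists were chosen with earlier results of these data known. Named are genes with a call, 16 textbook members, and in each class the uncalled probe set with the largest difference at 6 months. Of the pathway lists, up to 3 called genes are named. Same-numbered dKO and WT arrays of an age correlated at -0.325 to 0.137 in their deviations over 10 pairs, of which 2 exceeded 0.1, so numbers do not pair arrays. Chromosomes, symbols and promoter windows of 250 bases came from RefSeq tables of GRCm38.p6, where all 74 symbols were found. Alternatives were another normalization, 1 value per gene, fits on fewer groups, robust eBayes, array weights, covariates, a replicate block, stricter thresholds, and leaving out each array. Plots were made in Python 3.11.15 with matplotlib 3.10.9.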

Additional observations from a re-analysis of the deposited data

Results flagged for a closer look

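Among 24 probe sets and 72 groups of 4 to 6 arrays, 11 values stood far from the rest of their group by Dixon's test, which chance gives in about 1 of 20 groups. The Hspa1a and Hspa1b probe sets were low on dKO replicate 2 at 6 months, at -0.40 for Hspa1a (others 0.06 to 0.29) and at -0.72, -0.76 and -0.51 for Hspa1b. The array is 1 of 2 at 6 months with high choroid plexus markers. The other, WT replicate 1 at 6 months, was high for Hspa5 at 0.31 (others -0.04 to 0.00) and for Hsph1 at 0.0643 (1423566_a_at, others -0.12 to -0.11) and 0.0264 (1425993_a_at, others -0.02 to -0.01). The part of choroid plexus in these values was not tested. Single arrays also stood apart for Dnajc2 (1448794_s_at, dKO replicate 1 at 6 months, -0.96), Hspa5 (1416064_a_at, dKO replicate 6 at 6 months, -0.14), Dnajc25 (WT replicate 4 at 3 months, 0.0311) and Hspb1 (1422943_a_at, WT replicate 2 at 3 months, 0.27).

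In 2 probe sets every dKO array lay on opposite sides of WT at different ages. Hspa4l (1439093_at) had a log2 fold change of 0.13 at 6 weeks and -0.41 at 6 months, and the change between ages missed the threshold (limma, adjusted p = 0.105). Hspa1a had 0.43 at 6 weeks and -0.47 at 3 months, and the change between these ages missed it as well (limma, adjusted p = 0.310).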

How the results depend on the processing

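With array weights 6 chaperone probe sets were higher and 10 lower in dKO at 6 weeks, 2 lower at 3 months and 6 higher at 6 months, 8 and 4 passed the change of the difference from 6 weeks and from 3 months to 6 months, and 57 and 73 differed with age in WT and in dKO. At 6 months, 1 of the 3 probe sets called higher reached 1.5-fold, and 5 were called higher and 13 lower without the choroid-rich arrays, a setting chosen after seeing the data. Those called lower were 8 at an adjusted p under 0.01, 7 with at least 1.5-fold, 5 with only the 6-month arrays, 6 genes with the probe set of largest SD per gene and 5 genes with the mean per gene. Over all probe sets or genes, the shares called in either direction at 6 months were 6.5%, 3.81%, 6.06%, 18% and 17.3% in these settings. The share was 15% with array weights and 12.7% without the choroid-rich arrays, against 13.9% in the main fit. No such share by setting is given for the other ages or the age differences. With the probe set of largest SD, which is another probe set of the gene, the 6-month difference turned to 0.18 for Dnaja1 and 0.02 for both Hspa5 probe sets. Age differences in WT numbered 14 genes with the probe set of largest SD, 12 genes with the mean per gene, 11 with Xist, 1 with the Gapdh difference, 6 at an adjusted p under 0.01 and 6 at 1.5-fold. In dKO they numbered 24 genes, 23 genes, 23 with the Gapdh difference and 10 at 1.5-fold.

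Leaving out each array in turn gave 0 calls at 6 weeks and 3 months in either direction, 2 to 7 higher (7 without dKO replicate 2 at 6 months) and 11 to 19 lower at 6 months (11 without WT replicate 1), 0 to 1 and 0 to 2 changes from 6 weeks and 3 months to 6 months, 7 to 32 differences with age in WT (7 without WT replicate 2 at 6 weeks) and 32 to 55 in dKO. With a replicate block 2 were higher and 12 lower at 6 months, and 0 at the other ages, and the block cannot give the age differences within a genotype. Over all probe sets the share called at 6 months was 9.85% to 16.7% with 1 array left out and 8.48% with the block. The filter on dim probe sets was not run, and signal over background is not known for centred values.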
